A study of Homo sapiens with 12 samples.

Results

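The expression response to taurolidine alone was described by comparing 3 arrays of soft tissue sarcoma cells given taurolidine at 250 µmol/l for 6 h with 3 arrays of untreated cells, which are 6 of the 12 arrays in all. The cells were 3 human lines: A-204 (given as rhabdomyosarcoma), SK-LMS-1 (given as leiomyosarcoma) and VA-ES-BJ (given as epithelioid sarcoma). Sets of 3 values below follow this order of the lines unless another is named. The arrays were chosen by the treatment label and paired by line, and no TRAIL, a death receptor ligand, was given to any of them. The other 6 arrays held the same lines given TRAIL at 50 ng/ml or both agents. Each line and treatment had 1 array, the untreated cells are not described as having received the solvent of the drug, and nothing in the labels says whether the cultures of a line were set up separately. All changes below are therefore means over n = 3 lines with no replicate inside a line, and the p-values reflect nothing but the spread among these arrays, which may be technical. A line established from a single tumour stands for that line and not for a tumour type.

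Taurolidine is a derivative of the amino acid taurine that is used as an antimicrobial lock solution for catheters and that also kills tumour cells in culture. It breaks down in water to taurine derivatives and carriers of methylol groups, which react with proteins. Mammalian cells under stress quickly transcribe immediate-early genes, most of which encode transcription factors such as FOS and EGR1, while the messenger RNAs of many regulatory proteins have short lifetimes and thus change level fast. Their levels at a few hours are set by synthesis and decay together, and a level on an array shows only the balance of both.

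In the untreated arrays the marker genes followed the labels in part. KRT19, an epithelial keratin, had signals of 9.33, 27.9 and 16189, and SMARCB1, a chromatin remodelling subunit typically lost in epithelioid sarcoma, stood at 1235, 3530 and 152. Other epithelial markers went against this order, since DSP (3862, 36.2 and 46.7), EPCAM (1915, 13.8 and 130) and CDH1 (180, 44.7 and 42.1) were brightest in A-204. CNN1, a smooth muscle gene, was brightest in SK-LMS-1, at 661 against 17.7 and 162, while ACTA2, another, had signals of 1667, 1686 and 4980 and so did not single out SK-LMS-1. The skeletal muscle regulators MYOD1 and MYOG did not pass the filter on low signals, which counts arrays over all lines together. They were thus not measured here, and A-204 could not be tied to its label through them. None of the 9 smooth muscle, 4 leukocyte, 5 endothelial or 2 erythroid markers measured was called for a change with taurolidine. TNNT1, 1 of 4 skeletal muscle markers, and KRT18 and MUC1, 2 of 8 epithelial markers, were called higher.

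With taurolidine, immediate-early genes of stress and growth factor responses rose, FOS the most at 37.7-fold. A larger number of genes fell, among them genes for zinc finger proteins, chromatin enzymes, the Mediator complex, elongation factors and F-box proteins. Genes of RNA polymerase II and its general factors moved both ways. In all, 2735 of 14221 genes tested (19.2%) passed a limma adjusted p of 0.05, 1097 of them higher (7.71%) and 1638 lower (11.5%). All 2735 had the same direction in 3 of 3 lines, against 53.1% of all genes. A test paired by line favours genes whose lines agree, so this agreement is largely built in and is a description only. By size the response was uneven. Among called genes 68 were at least 2-fold higher and 670 at least 2-fold lower, and 15 were at least 4-fold higher and 85 at least 4-fold lower. The calls draw their error from all 12 arrays. With only the 6 arrays compared, limma called 0 genes (smallest adjusted p = 0.057, 3783 genes at an unadjusted p under 0.05, against 4921 with all arrays), and without the cell line term it called 148. Leaving out A-204, SK-LMS-1 or VA-ES-BJ left 363, 425 or 361 calls.

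The sign of small changes depends on how the arrays are scaled. The 27 probe sets for poly-A RNAs, bacterial controls added to a sample ahead of labelling, differed between taurolidine and untreated arrays by 0.73, 0.64 and 0.55 in the lines on the log2 scale (mean 0.64, SD 0.09, n = 3). When arrays were set equal on these spikes, the median change of all genes moved from -0.0031 to -0.62, and 39 genes were called higher against 7967 lower. With equal array medians the median was 0.11, and 61.9% of the calls were higher, against 40.1% as deposited and 51.8% with quantile normalization. RNA integrity was read from 3' over 5' probe sets, whose log2 ratio differed by 0.01 for GAPDH (SD 0.03) and by -0.01 for ACTB (SD 0.03). Changes below are given on the deposited scale, in which all arrays have a common trimmed mean, with the median of all genes at -0.0031. Whether spikes were added per mass of RNA or per number of cells is not given in the sources used here, so a value with spike scaling cannot be read as an amount per cell. The part of the spikes in the results was not tested. In bulk RNA, fewer cells of a kind and less RNA per cell cannot be told apart.

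**Figure D1:**
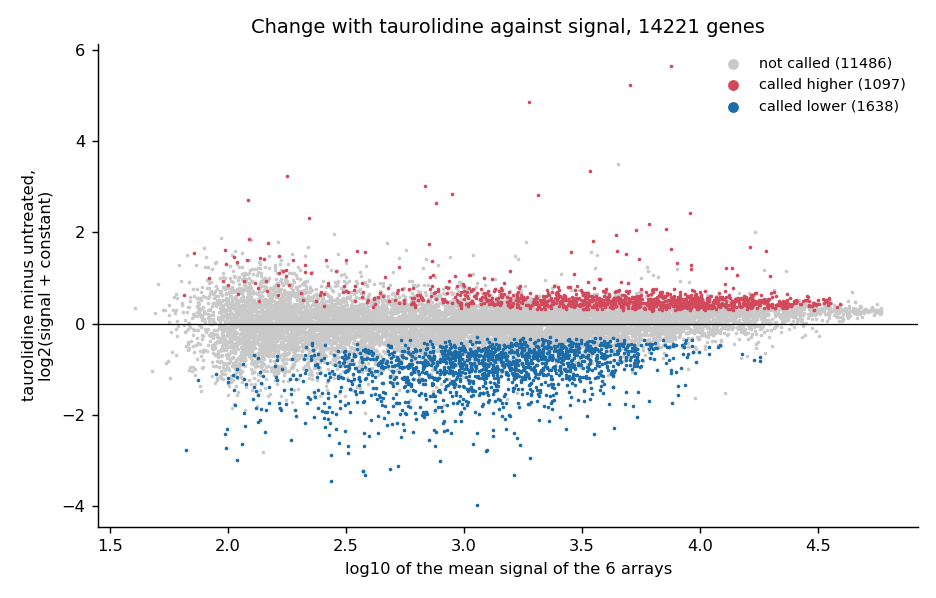
Each point is 1 of 14221 genes. The horizontal axis is the log10 of its mean signal over the 6 arrays, and the vertical axis is its mean change with taurolidine over 3 lines on the log2(signal + constant) scale. The 1097 genes called higher (red) lie mostly at high signals and small changes, while the 1638 called lower (blue) spread to larger changes at middle signals.

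The direction of the calls went with the brightness of the genes, as the plot of change against signal shows. Among genes above a mean signal of 3565, the upper quartile, 19.2% were called higher and 5.79% lower. From 1201 to 3565 these shares were 6.92% and 19.0%, and from 309 to 1201 they were 3.32% and 17.5%. Below 309 they were 1.38% and 3.71%, with a median change of -0.04, against 0.18 above 3565. On an array the signal of a probe set mixes abundance with probe quality, so brightness orders genes only roughly by their messenger RNA level.

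RNA45SN5, the precursor of ribosomal RNA, rose the most. Its signal went from 386 to 23948 in A-204, from 231 to 5565 in SK-LMS-1 and from 151 to 14743 in VA-ES-BJ. The treated arrays lay far above all untreated arrays, and the mean change was 5.64 ± 0.40 (SE), or 50.0-fold (limma adjusted p = 0.00044). Its other probe set rose by 4.85. This transcript is normally cut up in the nucleolus and carries no poly-A tail, so its signal on an array primed from poly-A tails is not a measure of ribosomal RNA synthesis. Of 33 genes of RNA polymerase I and ribosomal RNA processing 5 were lower and 2 higher (15.2% and 6.06%), with POLR1B, a core subunit of RNA polymerase I, at -0.999 ± 0.25 and POLR1A, its largest subunit, at -0.79 ± 0.20.

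The AP-1 genes encode subunits of a dimeric transcription factor that stress and mitogens induce. Of 18 AP-1 and ATF genes measured, 5 were called higher and 1 lower (27.8% and 5.56%), with a list median of 0.25 that was -0.39 with spike scaling, -0.0065 with the mean of all probe sets and 0.11 without VA-ES-BJ, where limma called 0 members (8 at an unadjusted p under 0.05). FOS, the founding immediate-early gene, had signals of 325, 108 and 148 in untreated A-204, SK-LMS-1 and VA-ES-BJ and of 6106, 20857 and 2692 with taurolidine. The rise was 4.18, 7.45 and 4.08 on the log2 scale, largest in SK-LMS-1 (mean 5.24 ± 0.76, 37.7-fold, limma adjusted p = 0.0048). FOSB, its close relative, went from 185, 155 and 35.7 to 2370, 5891 and 2642 (28.8-fold), and its fold depends on the added constant because VA-ES-BJ started near the background. ATF3, a stress-induced repressor of the same family, went from 845, 250 and 873 to 3922, 6311 and 8347, a rise of 10.2-fold. MAFF, a small MAF partner of NRF2, rose 3.09-fold, from 1326, 7602 and 3272 to 5893, 17205 and 9688. In each of these genes every line rose, and only in MAFF did the untreated SK-LMS-1 signal overlap the treated signals of other lines. JUN and JUNB, the partners of FOS, were not called as a mean over lines (JUN 1.20 ± 0.57, limma adjusted p = 0.18, and JUNB 1.57 ± 0.48, adjusted p = 0.057), and JUN changed by 2.32, 1.69 and -0.41 in the 3 lines.

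Of 16 EGR, NR4A and IER genes 7 were higher and 1 lower (43.8% and 6.25%), with a median of 0.82 that stayed above 0, at 0.23, with spike scaling and was 0.53 with a constant of the table median. EGR3, a zinc finger transcription factor, was the most uniform of the large rises. Its signal went from 259 to 1888 in A-204, from 79.6 to 803 in SK-LMS-1 and from 104 to 972 in VA-ES-BJ, changes of 2.81, 3.16 and 3.09 (mean 3.02, SD over lines 0.18, 8.11-fold, limma adjusted p = 0.00011). NR4A2, an orphan nuclear receptor, rose from 439, 114 and 59.0 to 2975, 1415 and 332 (7.15-fold), and both of its other probe sets rose, by 2.77 and 3.23. EGR1, the best known member, rose by 1.71, 1.67 and 0.59 from signals that were already 3626, 5368 and 3905 in the untreated cells (2.50-fold, limma adjusted p = 0.012). ARC, an effector of neuronal plasticity, rose from signals under 30 in each line and is better read as detected than as a fold. The other members called higher were IER5, IER3 and IER2, at 1.29 ± 0.27, 1.22 ± 0.32 and 1.07 ± 0.16.

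5 promoters that hold a motif are shown, to set the sequence beside genes that rose and 1 that fell. Among other genes that rose, FOS, FOSB, RGS2, RHOB, RSRP1 and PMAIP1 held none of the motifs searched for in the same stretch. HES1 and PTGS2 held a heat shock element there, and GADD45B and KLF4 an E-box. They come from RefSeq on GRCh38.p14, hold the 250 bases before the annotated start, and are printed 5′ to 3′ on the strand of the gene, with capitals for the motif. PPP1R15A, MAFF, ATF3 and EGR1 rose, and PPM1D fell. MAFF and ATF3 each have 2 promoters in the table, and the one not shown holds only an E-box in MAFF and none of the motifs in ATF3.
PPP1R15A, chr19:48872171-48872420, plus strand, CRE in capitals: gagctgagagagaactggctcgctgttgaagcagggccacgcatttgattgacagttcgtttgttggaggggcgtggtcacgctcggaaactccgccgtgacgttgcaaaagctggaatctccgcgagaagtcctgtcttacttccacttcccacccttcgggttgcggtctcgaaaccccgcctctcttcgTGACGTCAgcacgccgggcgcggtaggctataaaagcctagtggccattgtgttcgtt
MAFF, chr22:38201744-38201993, plus strand, CRE and E-box in capitals: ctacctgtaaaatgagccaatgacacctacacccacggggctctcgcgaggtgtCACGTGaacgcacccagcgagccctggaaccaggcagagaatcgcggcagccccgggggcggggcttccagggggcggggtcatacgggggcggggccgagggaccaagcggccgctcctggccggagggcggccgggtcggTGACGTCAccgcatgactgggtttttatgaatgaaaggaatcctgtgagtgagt
ATF3, chr1:212565157-212565406, plus strand, ATF4 element in capitals: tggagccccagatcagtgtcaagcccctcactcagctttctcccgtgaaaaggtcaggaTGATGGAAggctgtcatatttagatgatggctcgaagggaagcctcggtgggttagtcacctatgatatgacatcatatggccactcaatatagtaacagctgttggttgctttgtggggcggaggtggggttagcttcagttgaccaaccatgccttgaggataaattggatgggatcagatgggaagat
EGR1, chr5:138465229-138465478, plus strand, serum response elements in capitals: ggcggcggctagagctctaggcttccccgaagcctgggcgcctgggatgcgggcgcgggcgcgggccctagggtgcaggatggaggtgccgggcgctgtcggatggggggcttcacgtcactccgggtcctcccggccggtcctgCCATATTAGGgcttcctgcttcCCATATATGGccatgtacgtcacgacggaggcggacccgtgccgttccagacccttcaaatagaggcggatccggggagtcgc
PPM1D, chr17:60599943-60600192, plus strand, CRE in capitals: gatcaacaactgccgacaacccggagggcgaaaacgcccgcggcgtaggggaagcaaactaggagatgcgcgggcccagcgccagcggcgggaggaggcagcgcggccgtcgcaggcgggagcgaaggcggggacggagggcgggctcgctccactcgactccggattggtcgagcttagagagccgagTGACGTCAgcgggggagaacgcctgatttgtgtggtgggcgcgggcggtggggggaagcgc

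The CRE lay 58 bases before the start in PPP1R15A, 54 in MAFF and 61 in PPM1D, counted to its first base, and EGR1 held 2 serum response elements, at 105 and 83. The sites did not overlap each other. Motifs were searched on both strands of the 300 bases from 250 before to 50 after each start, as exact matches to TGANTCA (AP-1), TGACGTCA (CRE), TGATGNAA (ATF4 element), GAANNTTC (heat shock element), CACGTG (E-box) and the serum response element. RefSeq promoters were matched for 57 of the 68 genes at least 2-fold higher, with 63 promoters, for 554 of the 670 at least 2-fold lower, with 803, and for 11414 of the 14221 tested, with 16527. A CRE was in 5 of the 63 promoters of the higher genes (7.94%), in 2.62% of those of the lower genes and in 2.61% of those of all genes tested. The ATF4 element was in 7.94%, 2.12% and 2.20%, the heat shock element in 11.1%, 5.48% and 5.12%, the E-box in 12.7%, 10.5% and 9.03%, the AP-1 motif in 3.17%, 6.23% and 5.52%, and the serum response element in 3.17%, 0.747% and 1.18%. Over all 35116 promoters of the reference, the CRE was in 1.85% and the E-box in 7.26%. The shares for the higher genes rest on 2 to 8 promoters each and carry no test. The median GC content was 63.7% for higher genes, 64.7% for lower genes and 64.3% for all genes tested. PPM1D, which fell by 2.01, carries the same CRE letters at nearly the same distance as PPP1R15A and MAFF, which rose.

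Other regulators rose beside these transcription factors. HES1, a Notch-responsive repressor, went from 699, 186 and 885 to 3134, 3948 and 3537, so that the treated lines reached a similar signal from different starts (7.05-fold, limma adjusted p = 0.016). It was the 1 member called higher of 15 ID and HES/HEY repressors, and ID3, an inhibitor of basic helix-loop-helix factors, was the 1 called lower (-0.80 ± 0.19). KLF4, a Krüppel-like factor, rose 3.84-fold, from 3754, 1584 and 207 to 7245, 12941 and 780, while KLF9, KLF7 and KLF3 of the same family were lower, at -1.45 ± 0.39, -1.24 ± 0.33 and -0.94 ± 0.20. Another probe set of KLF9 gave 0.58, the opposite sign. RGS2, which limits G protein signalling, rose 4.57-fold with changes of 0.99, 3.54 and 2.04, and RHOB, a stress-inducible small GTPase, 3.51-fold with 1.67, 2.97 and 0.80. RSRP1, an arginine and serine rich protein gene, rose 4.13-fold. SK-LMS-1 had the largest of the 3 changes in HES1, KLF4, RGS2, RHOB and RSRP1.

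**Figure D2:**
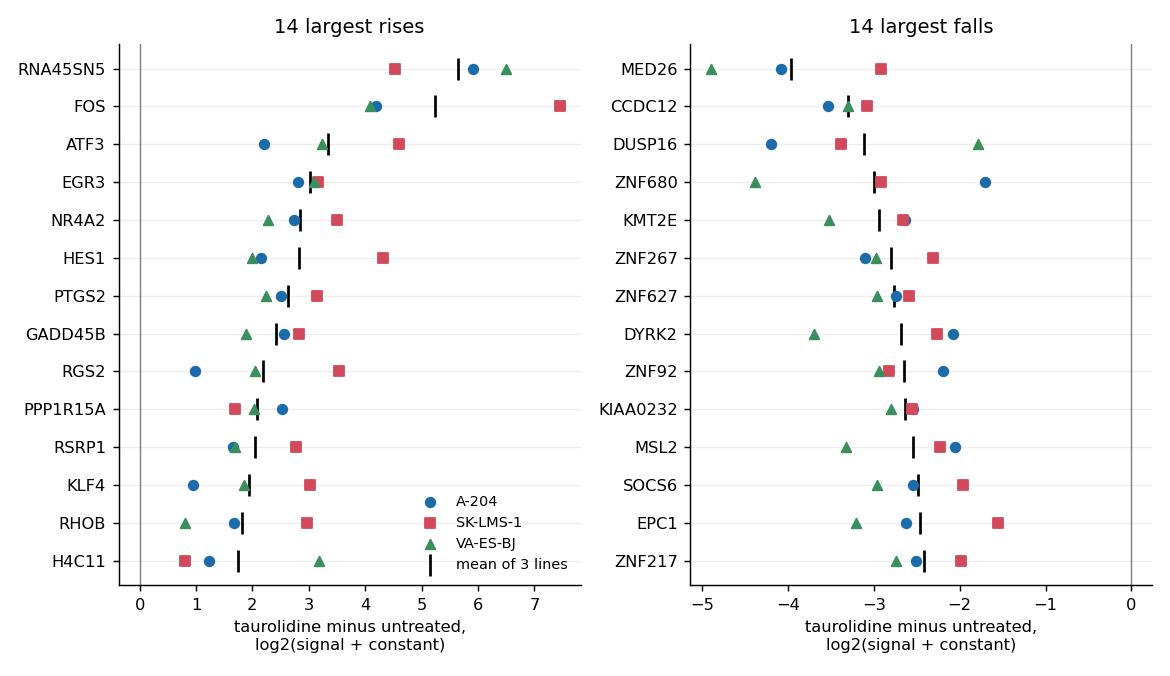
Change with taurolidine on the log2(signal + constant) scale in each line (symbols) and its mean over 3 lines (bars) for 14 risers and 14 fallers with the greatest change among called genes above the table median in both groups. The same direction in 3 of 3 lines was a condition for choosing the 28 genes. The widest spread among them is that of FOS, from 4.08 to 7.45.

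Among stress response genes the members moved both ways. Of 25 ATF4 targets 5 were higher and 3 lower (20% and 12%), with a median of 0.16 that was -0.48 with spike scaling. PPP1R15A, the phosphatase subunit that reverses the arrest of translation, went from 1200, 4964 and 2691 to 6965, 16149 and 10998 (4.24-fold), and its other probe set rose by 2.73. ATF4 itself rose 2.05-fold, while SESN2 and TRIB3, both induced by ATF4 in many cells, were lower at -1.50 ± 0.27 and -0.85 ± 0.16. Of 27 p53 targets 6 were higher and 6 lower (22.2% each), with a median of 0.07, -0.06 with quantile normalization and -0.56 with spike scaling. The 3 GADD45 genes, which encode stress sensors, were among those higher. GADD45B rose 5.37-fold, from 1913, 4140 and 1626 to 11381, 29445 and 6033, and GADD45A rose 3.02-fold, from 7297, 8417 and 12814 to 21860, 32260 and 30891. In GADD45A no treated line overlapped an untreated one. SESN1 fell by 1.56 ± 0.27, and PPM1D, a phosphatase that shuts off p53, by 2.01 ± 0.18.

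PMAIP1, the gene of the pro-apoptotic BH3-only factor NOXA, had the smallest spread over lines of the 68 called genes at least 2-fold higher, at 1.18, 1.23 and 1.15 (2.28-fold, SD 0.04, limma adjusted p = 0.00045). Its untreated signals of 1167, 9647 and 5861 became 2656, 22625 and 13052, so each line kept its rank. It and BNIP3 (0.46 ± 0.12, -0.18 with spike scaling) were the 2 called of 18 BCL2 family genes. In the death receptor and caspase list 5 of 19 were lower and 0 higher (26.3%), in limma at the same threshold. FADD, the adaptor of the death receptors, dropped from 5537, 5620 and 2391 to 1033, 974 and 594, and every treated signal was below every untreated one (4.94-fold lower, limma adjusted p = 0.00051). CASP8, the caspase it recruits, went from 1790, 451 and 5782 to 1110, 167 and 2656.

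Inflammatory targets did not move as a group. Of 22 NF-kB targets 2 were higher and 2 lower (9.09% each), close to the 7.71% and 11.5% of all genes. PTGS2, the inducible cyclooxygenase, rose 6.20-fold, from 52.99, 393 and 24.8 to 358, 3551 and 162, and the cytokine gene IL6 2.63-fold, from 162, 140 and 185 to 649, 493 and 272. REL, a subunit of NF-kB, and TNFAIP3, its feedback inhibitor, were lower, at -1.06 ± 0.17 and -1.05 ± 0.20.

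Of 20 heat shock genes 2 were higher, HSPB1 at 0.54 ± 0.12 and FKBP4 at 0.49 ± 0.14 (10.0%, near the 7.71% of all genes). The list median was 0.18, -0.01 with quantile normalization and -0.46 with spike scaling. HSPA6, the strictly inducible HSP70 gene, was not called (3.50 ± 1.26, limma adjusted p = 0.09). Its signal went from 205 to 21598 in SK-LMS-1 but from 586 to 3927 in A-204 and from 182 to 419 in VA-ES-BJ. Of 19 endoplasmic reticulum chaperones 2 were higher, led by DNAJB9, a cochaperone of BiP, at 0.89 ± 0.12 with changes of 0.85, 0.94 and 0.88. Of 25 NRF2 targets 6 were higher and 4 lower (24.0% and 16.0%). AKR1C2, an aldo-keto reductase, was at 0.70 ± 0.18, and GCLC, the catalytic subunit of glutathione synthesis, and KEAP1, the inhibitor of NRF2, were at -0.59 ± 0.14 and -1.01 ± 0.22. Of 18 genes for the clearance of formaldehyde and other aldehydes 3 were higher and 0 lower by limma (16.7%). The share higher was 7.71% for all genes and 19.2% for those with a mean signal above 3565. Among the 3 were ESD, S-formylglutathione hydrolase, at 0.48 ± 0.13 and ALDH2 at 0.37 ± 0.10. With no filter, or with any 1 line left out, limma called 0 members. Any link to the methylol groups of the drug was not tested. With spike scaling ESD stood at -0.15 and ALDH2 at -0.26, and with the mean of all its probe sets ESD stood at -0.07. Of 32 peroxiredoxin and glutathione enzyme genes 11 were higher (34.4%), led by GSTM3 at 0.73 ± 0.15, with a list median of 0.42 that was -0.21 with spike scaling.

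The falls were led by MED26, a subunit of the Mediator complex that hands RNA polymerase II to elongation factors. Its signal dropped from 2305 to 125 in A-204, from 1842 to 233.6 in SK-LMS-1 and from 2247 to 64.2 in VA-ES-BJ (-3.97 ± 0.34, 15.6-fold lower, limma adjusted p = 0.00067), and its other probe set gave -3.37. Of 30 Mediator genes 8 were lower and 2 higher (26.7% and 6.67%), with MED9, MED17 and MED7 at -1.49 ± 0.24, -1.47 ± 0.21 and -1.39 ± 0.15. MED17 had another probe set at 0.32. Among 25 genes of P-TEFb and elongation factors, 8 were lower and 1 higher (32.0% and 4.00%), among them CCNT1 and CCNT2, the cyclins of P-TEFb, at -0.99 ± 0.18 and -1.07 ± 0.13, and ELL at -1.12 ± 0.30. In the RNA polymerase II, GTF2 and TAF list 10 of 47 were lower and 8 higher (21.3% and 17.0%), so both shares were above those of all genes. TAF5 and TAF4, of the TFIID complex, were at -2.05 ± 0.22 and -1.51 ± 0.25, and GTF2B, which positions the polymerase, went from 3224, 5696 and 4475 to 1037, 2248 and 2974. Among called genes above the table median in both groups, CCDC12, a spliceosome component, had the second largest fall (9.88-fold lower). Its signal went from 3339, 3016 and 2508 to 278, 347 and 243, with the treated lines close together.

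Zinc finger genes made up the largest group of falls. Of 409 measured ZNF genes, many of which encode sequence-specific repressors with KRAB domains, 176 were called lower and 3 higher (43.0% and 0.733%), 103 of them at least 2-fold lower, and the list median was -0.68. In the lines the medians were -0.78, -0.57 and -0.68, and across scalings the median lay between -0.48 and -1.28. ZNF627 dropped from 2366, 1501 and 2695 to 344, 240 and 335 (6.80-fold lower, SD over lines 0.19), ZNF267 from 1722, 1535 and 3267 to 190, 301 and 404 (6.95-fold), ZNF92 from 2619, 2092 and 4220 to 562, 285 and 541 (6.29-fold), and ZNF217, an oncogene amplified in carcinomas, from 6102, 4299 and 7666 to 1065, 1074 and 1135 (5.32-fold). In these 4 genes every treated signal lay below every untreated one. ZNF680 had changes of -1.70, -2.92 and -4.38. ZNF557 fell from 240, 210 and 156 into the background, and its other probe set gave 0.10. The 3 called higher were ZNF580, ZNF358 and ZNF226, at 0.70, 0.65 and 0.64. Of 57 ZBTB and ZSCAN genes, which share the zinc fingers, 34 were lower and 1 higher (59.6% and 1.75%), with ZBTB5 at -2.32 ± 0.18 and ZBTB34 at -2.11 ± 0.18. Probe sets of this family may detect relatives of similar sequence.

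Genes of chromatin enzymes were also among the falls. Of 43 histone methyltransferases and demethylases 16 were lower and 2 higher (37.2% and 4.65%), with a list median of -0.40 that was -0.24 with quantile normalization, -0.23 without VA-ES-BJ and -0.22 for members above the table median on all 12 arrays. SETD1B, a methyltransferase of histone H3 lysine 4, dropped from 3015, 3255 and 1980 to 560, 516 and 436 (-2.40 ± 0.14, 5.26-fold lower), and SETD2, which methylates lysine 36, from 1681, 1839 and 1252 to 538, 758 and 336. KMT2E, a reader of the MLL family, stood at -2.94 ± 0.22, but its other probe sets gave only -0.55 and -0.34, so the size of its change depends on the probe set. EPC1, of the NuA4 acetyltransferase, went to -2.46 ± 0.35 with other probe sets at -2.59 and 1.91. MSL2, a ubiquitin ligase of the MSL acetyltransferase, fell from 1387, 1183 and 1046 to 325, 242 and 93.3. In contrast, 11 of 28 replication-dependent histone genes were higher and 0 lower by limma (39.3%), with a list median of 0.56, -0.07 with spike scaling. H4C11 and H3C2 rose by 1.74 ± 0.49 and 1.40 ± 0.23, from dim signals of 56.8 to 615 and 68.9 to 109 in the untreated lines. These transcripts normally lack a poly-A tail, and members of the family are near-identical in sequence.

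Genes of ubiquitin ligases and of signal feedback were also among the falls. Of 52 F-box genes 18 were lower and 1 higher (34.6% and 1.92%), among them FBXW7, which targets cyclin E for decay, at -2.18 ± 0.21, and FBXO5, an inhibitor of the anaphase-promoting complex, which went from 6265, 8235 and 7483 to 1276, 2424 and 3117. FBXW7 had another probe set at 1.30. Of 49 KLHL, KCTD and BTBD genes 14 were lower and 0 higher (28.6%), of 43 USP deubiquitinases 12 were lower and 1 higher (27.9% and 2.33%), and of 106 TRIM and RNF ligases 17 and 4 (16.0% and 3.77%). List medians were -0.13 (F-box), -0.21 (KLHL, KCTD and BTBD), -0.26 (USP) and -0.21 (TRIM and RNF). With equal array medians they were -0.0062, -0.09, -0.14 and -0.09, against 0.11 for all genes. Then 13 of 52, 8 of 49, 8 of 43 and 8 of 106 members were lower, against 1123 of 14221 genes. The TRIM and RNF share was thus no larger than that of all genes. As deposited, its 16.0% lay below the 17.5% of genes with a mean signal from 309 to 1201 and the 19.0% from 1201 to 3565. The lists were not matched for brightness. Under spike scaling 36, 34, 37 and 80 were lower, against 7967 of 14221 genes. RNF26, a ligase of the endoplasmic reticulum, fell by 1.39, 1.30 and 1.36. Of 18 MAP kinase phosphatases and Sprouty genes, which dampen growth factor signalling, 6 were lower and 0 higher (33.3%), with DUSP7 at -1.83 ± 0.21, SPRY2 at -1.18 ± 0.18 and SPRED2 at -1.18 ± 0.33. DUSP16, which acts on JNK and p38, went from 693, 345 and 1600 to 26.6, 22.5 and 456, and its other probe sets gave -1.66 and -0.60. Of 12 TGF-beta feedback genes 5 were lower and 0 higher (41.7%), with SMAD7, the inhibitory SMAD, dropping from 121, 926 and 1814 to 27.9, 222 and 129, and SKIL and SKI at -1.30 ± 0.13 and -1.14 ± 0.24. SOCS6, a suppressor of cytokine signalling, fell from 3831, 2347 and 2310 to 647, 592 and 286.

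Repair and cell cycle genes were split. Of 22 genes of the Fanconi anaemia pathway and crosslink repair 9 were lower and 1 higher (40.9% and 4.55%), with a median of -0.32. The median was -0.12 with 4 lower under quantile normalization, -0.13 without A-204 and -0.08 for members above the table median on all 12 arrays. PALB2, the partner of BRCA2, dropped from 1068, 1036 and 1093 to 217, 368 and 211, and REV1, a translesion polymerase, from 1881, 1965 and 2172 to 805, 872 and 646. FANCF stood at -1.93 ± 0.48 with changes of -0.17, -2.63 and -2.98, so A-204 carried little of it, and another probe set of SLX4 gave 0.83 against the -1.74 ± 0.48 of the one used. In the mitosis and kinesin list 17 of 73 were lower and 5 higher (23.3% and 6.85%), among them CDC25A, the phosphatase that starts S phase, which went from 818, 633 and 608 to 135, 19.7 and 59.9. Of 47 MCM, ORC and replication genes 9 were higher and 1 lower (19.1% and 2.13%). The share higher was 7.71% for all genes and 19.2% for those with a mean signal above 3565. The list median was 0.18, 0.12 with quantile normalization and -0.46 with spike scaling. E2F3 and E2F5, transcription factors of the cell cycle, were at -1.83 ± 0.28 and -1.38 ± 0.23, and CDKN2B, an inhibitor of CDK4, at 1.15 ± 0.30.

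Many genes of the respiratory chain rose by small amounts, while smaller shares of the ribosome, proteasome, EIF and splicing lists passed the test. Of 32 complex I subunits 23 were higher and 0 lower (71.9%), and of 39 subunits of complexes III, IV and V 22 were higher and 0 lower (56.4%), both by limma, with list medians of 0.48 and 0.45 that were -0.16 and -0.18 with spike scaling and 0.30 and 0.21 with quantile normalization. NDUFA1 went from 16426, 13509 and 17409 to 29316, 21328 and 25894, and no treated line overlapped an untreated one. ATP5ME, of the ATP synthase, changed by 0.64, 0.65 and 0.60. With quantile normalization the calls dropped to 14 in complex I and to 4 in complexes III, IV and V, and with any 1 line left out limma called 0 genes of either list (23 to 24 and 20 to 25 at an unadjusted p under 0.05). Of 75 mitochondrial ribosomal proteins 23 were higher and 2 lower (30.7% and 2.67%; median 0.23, -0.41 with spike scaling), and 12 were higher with quantile normalization. Of 60 cytosolic ones 3 were higher and 0 lower by limma (5.00%, below the 7.71% of all genes; median 0.30, 0.04 with quantile normalization and -0.34 with spike scaling). In the cytosolic list 53 of 60 genes were above 0 in 3 of 3 lines. Of 41 proteasome subunits 10 were higher and 1 lower (24.4% and 2.44%; median 0.29, -0.35 with spike scaling), the latter PSME4, an activator of the core particle, and with quantile normalization 3 were higher at a median of 0.09. Of 46 EIF translation factors 12 were higher and 3 lower (26.1% and 6.52%; median 0.20, -0.43 with spike scaling), 6 higher with quantile normalization at a median of 0.05, with EIF4ENIF1, which carries EIF4E into the nucleus, at -1.84 ± 0.18. Of 63 splicing factors 11 were higher and 2 lower (17.5% and 3.17%; median 0.15, -0.02 with quantile normalization and -0.49 with spike scaling). With quantile normalization the median of all genes was 0.06, so the cytosolic ribosomal, EIF and splicing medians lay below it. These lists were not matched for brightness, and of all genes with a mean signal above 3565, 19.2% were called higher.

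**Figure D3:**
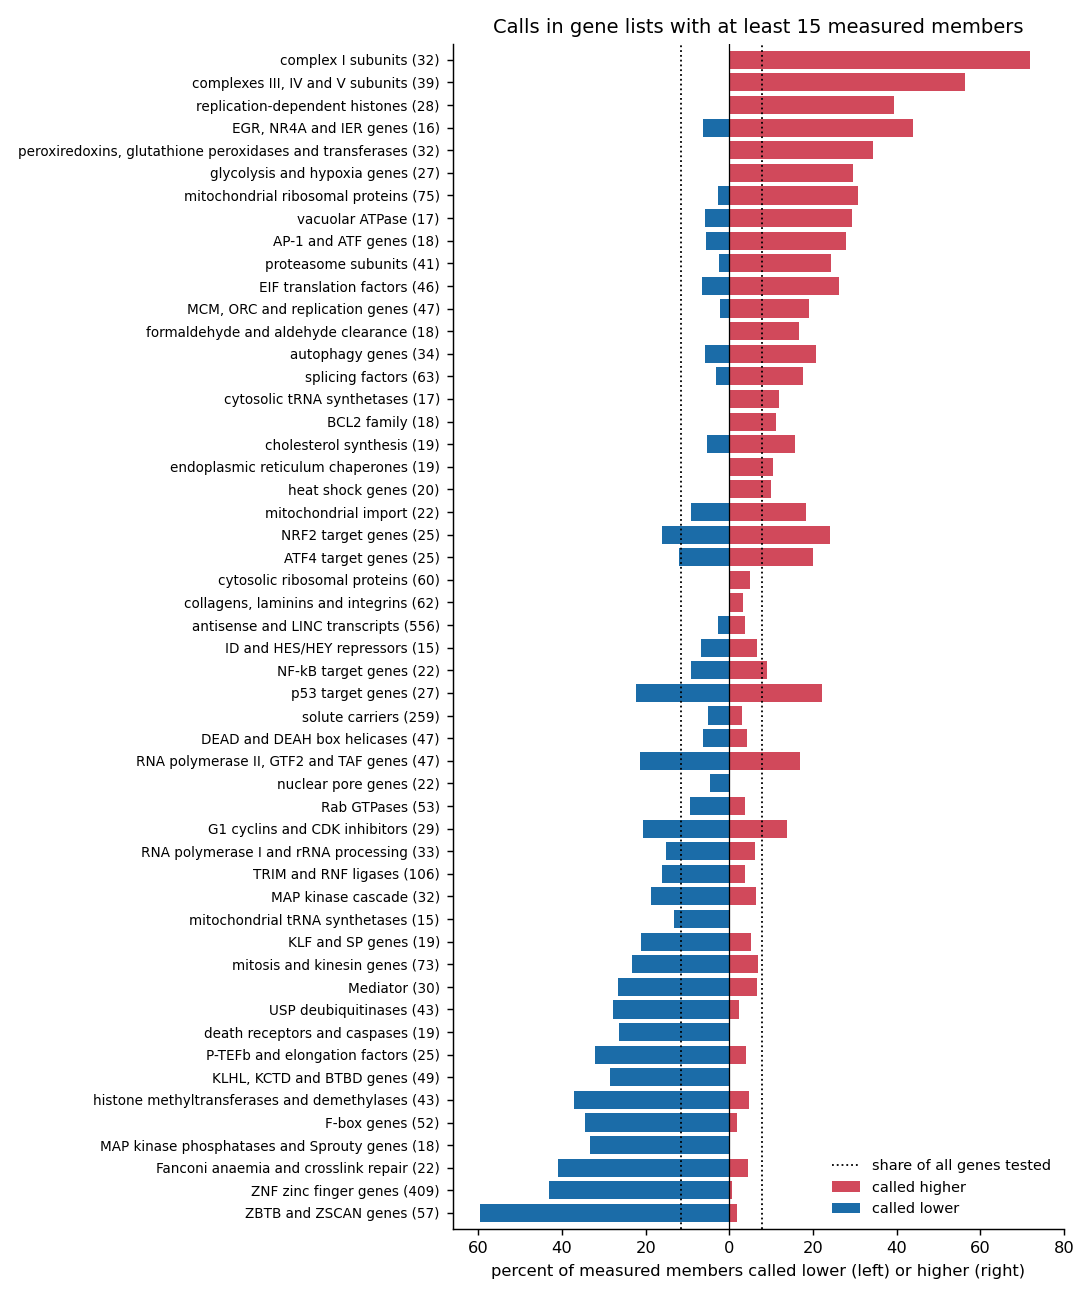
For each gene list with at least 15 measured members (number in brackets), bars give the percent of members called lower (left, blue) and higher (right, red) with taurolidine, and dotted lines give the shares of all genes tested, 11.5% and 7.71%. Complex I stands at the top with 71.9% higher and the ZBTB and ZSCAN genes at the bottom with 59.6% lower.

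Probe sets with no listed gene held strong responses as well. Of 4060 such probe sets 130 were called higher (3.2%) and 259 lower (6.38%), against 3.9% and 10.3% of the 27105 with 1 listed gene, and their median signal was 218 against 799. The probe set 236898_at went from 9.37 to 124 in A-204, from 19.7 to 1526 in SK-LMS-1 and from 11.5 to 399 in VA-ES-BJ (4.14 ± 0.77, limma adjusted p = 0.014). The probe set 240256_at rose by 3.98 ± 0.50, from 8.78, 23.4 and 18.7 to 425, 329 and 570. The probe set 232017_at dropped from 151, 208 and 488 to 14.3, 14.7 and 13.97, which is near the constant added before the logarithm (-3.32 ± 0.37). These 3 had the same sign as a mean on the arrays with TRAIL, at 3.99, 3.70 and -3.13.

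Some changes were nearly equal in the 3 lines, although over all genes the lines were less alike. The changes correlated at r = 0.42 between A-204 and SK-LMS-1, 0.47 between A-204 and VA-ES-BJ and 0.39 between SK-LMS-1 and VA-ES-BJ. A rise of at least 2-fold in 1 line with such a fall in another was seen in 230 genes, 14 of them called as line differences. TBCCD1, a centrosome positioning gene, dropped from 2263, 1810 and 1723 to 685, 531 and 533, changes of -1.71, -1.75 and -1.67 (SD 0.04, limma adjusted p = 0.00015), and on the arrays with TRAIL the changes were -1.72, -1.79 and -1.63. PPM1D changed by between -1.98 and -2.05, B4GALT5, a galactosyltransferase, by -1.11, -1.03 and -1.06, and PTPN3, a tyrosine phosphatase, by -0.99, -0.98 and -1.04. In all, 32 genes were at least 2-fold higher in 3 of 3 lines (0.225%) and 331 at least 2-fold lower (2.33%), of which limma called 27 and 320. Counted in single lines, 548, 631 and 447 genes were at least 2-fold higher and 1517, 1140 and 1142 at least 2-fold lower. TBCCD1, PPM1D, B4GALT5 and PTPN3 were chosen for their small spread, so the spread itself is a description.

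The 6 arrays with TRAIL gave a second look at the drug, since taurolidine and TRAIL against TRAIL shares no array with taurolidine against untreated, although both use the same error in the fit. Of the 2735 called genes, 2542 (92.9%) had the same direction in 3 of 3 lines there, against 34.8% of the genes not called. Genes whose changes with TRAIL varied among lines had a larger error in the fit and were called less readily. The contrast is thus partly built in and is a description only. Among the 738 called by at least 2-fold, 695 had the same direction in 3 of 3 lines on the arrays with TRAIL. Their median ratio of the change with TRAIL to the change alone was 0.93 (lower and upper quartile 0.79 and 1.03). MED26 changed by -4.07, -3.11 and -3.74 there, FADD by -2.82, -2.16 and -1.998, FOS by 3.32, 6.67 and 4.11, and EGR3 by 3.17, 2.76 and 3.17. Some called genes did not repeat. FKBP6, an immunophilin gene, was at 1.09, 1.03 and 0.92 alone and at -0.999, -0.01 and -0.15 with TRAIL, and GINS4, of the replicative helicase, was at 0.93 ± 0.23 alone and at -0.64, -0.05 and 0.17 with TRAIL. FKBP6 is a dim gene, with untreated signals of 51.9, 39.8 and 62.7. In the list medians the ZNF genes were at -0.66 with TRAIL, complex I at 0.34, the histones at 0.59 and all genes at 0.06.

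**Figure D4:**
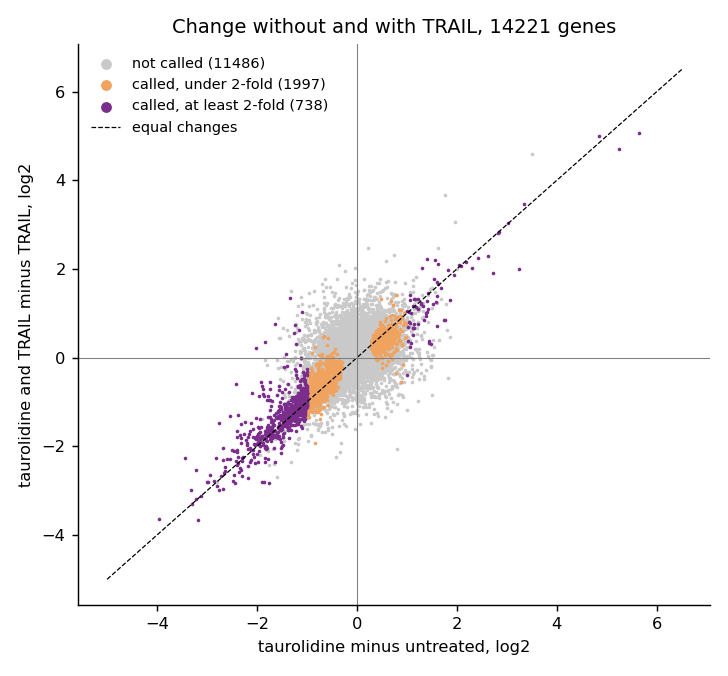
For each of 14221 genes the mean change over 3 lines is plotted for taurolidine alone (horizontal) and for taurolidine given with TRAIL against TRAIL (vertical), both in log2, with the dashed line marking equal changes. The 738 genes called by at least 2-fold (purple) lie close to that line, with a median ratio of 0.93.

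Some genes responded differently from line to line. A limma F test on the interaction of line and taurolidine over all 12 arrays called 1.43% of the genes, 40 of them also called for the mean change, and 113 had opposite signs among lines. The most distant line was A-204 for 75 of these genes, SK-LMS-1 for 72 and VA-ES-BJ for 57. A-204 was the lowest line in 56 of its 75, and SK-LMS-1 the highest in 56 of its 72. The test takes arrays with and without TRAIL as the pair of measurements of each line, although they are not replicates of the same condition. It assumes that TRAIL acts alike in all lines and with and without taurolidine, which was not tested. The test depends strongly on settings, as it called from 48 to 1047 genes under the alternatives that kept all lines. Without A-204 it called 1 gene, without SK-LMS-1 0 (limma, 1 pair of lines left), and without VA-ES-BJ 4.

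ID2, an inhibitor of differentiation, went from 787 to 17684 in SK-LMS-1, from 11225 to 28335 in A-204 and from 20866 to 23910 in VA-ES-BJ, changes of 4.47, 1.33 and 0.20 (limma adjusted p for a line difference = 0.00049). The treated lines ended close together. TRIB1, a scaffold of the COP1 ligase, went from 14051 to 2287 in A-204, from 1479 to 6983 in SK-LMS-1 and from 684 to 836 in VA-ES-BJ (adjusted p = 0.00073, limma), so its mean change of -0.03 describes no line. DDIT4, a stress-induced inhibitor of mTORC1, went from 6163 to 2176, from 869 to 3037 and from 13234 to 2374, and again the treated signals were alike. HMGA2, an architectural chromatin protein of mesenchymal tumours, changed by -2.03, -2.63 and 0.10 and was brightest in untreated VA-ES-BJ, at 27062, but 2 of its 5 other probe sets had the opposite mean sign. ZNF804A and FAM20C, a secretory kinase, changed mainly in A-204, by -3.90 and -1.66. FAM43A changed by -0.63, 3.41 and 1.49.

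Of the NF-kB targets 5 of 22 were called as line differences, against 1.43% of all genes, and are named here after their values were seen. With 1 line left out the test called 0 to 4 genes in all, so these calls need all 3 lines. NFKBIA, the inhibitor of NF-kB, changed by 0.37, 1.80 and -1.29, NFKBIZ by 0.43, 1.33 and -0.76, the chemokine gene CXCL2 by 0.47, 3.10 and 0.95, the adhesion gene ICAM1 by -2.16, 1.39 and -0.21, and IRF1 by -1.55, 0.66 and -0.08. In each of the 5 SK-LMS-1 had the highest change. ICAM1 and IRF1 had other probe sets of opposite mean sign. Of the AP-1 and ATF genes 5 of 18 were called as line differences too, against 1.43% of all genes. They were FOS, FOSB, JUN, JUNB and JDP2, and FOS and JUNB had their largest change in SK-LMS-1. Whether either family differs between lines as a group was not tested.

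**Figure D5:**
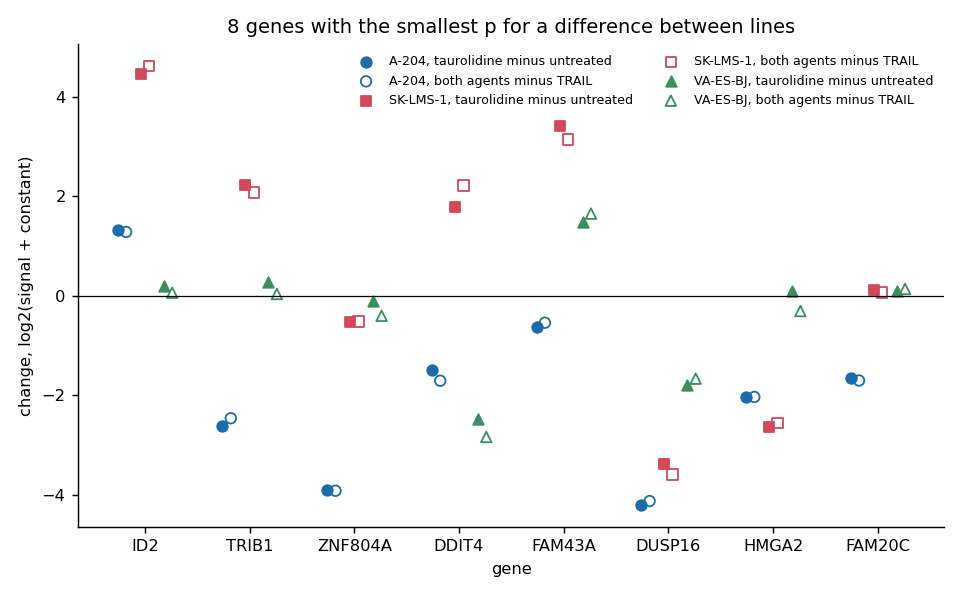
Changes with taurolidine in log2 for the 8 genes with the smallest p for a difference between lines, alone (filled symbols) and on the arrays with TRAIL (open symbols), with colour and shape for the line. The test that chose the genes used both kinds of symbol. The lines stand apart, as in ID2, where SK-LMS-1 is at 4.47 and VA-ES-BJ at 0.20.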

How the data were processed

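RNA of 3 lines under 4 treatments was measured on 12 Affymetrix arrays. The deposited values are linear signal intensities per probe set, made by the authors with MAS5, per the submitters' processing notes. The number of arrays limits the precision. From them log2(signal + 11.8) was taken, the constant being the 10th percentile of the table. Probe sets above the table median of 136.5 on at least 3 arrays were kept, and the brightest stood for its gene. limma 3.58.1 in R 4.3.3 fitted treatment and line on all 12 arrays, with Benjamini-Hochberg adjustment at 0.05, and a fold is on this log2 scale and understates changes of dim genes. The line term pairs arrays of the same cell line, whose deviations from the group means correlated at 0.869 to 0.891 within a line and -0.474 to -0.406 between lines. On simulated data for this comparison with 14221 genes, limma recovered 4.03%, 50.0% and 83.2% of changes of 0.5, 1 and 2 (log2). False calls were 4.22%. In each run 200 genes changed, with independent noise between genes and equal responses in all lines, unlike the real data. The 4.22% is thus not the false share among the calls given here. The members and lists were chosen with earlier results of these data known. Genes were named by rank of change among called genes, smallest spread, smallest p between lines and up to 4 called members per list, and exceptions are marked or stand as members not called. Alternatives were the constant, the filter, the scaling, the probe set rule, the error model, the block and leaving out each line. Promoters came from RefSeq, GRCh38.p14, and protein sequences were not used here.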

Additional observations from a re-analysis of the deposited data

Results flagged for a closer look

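28 genes named in the report, its plots or the closing section were picked out because the response to taurolidine differed between lines in the limma F test on the interaction. The adjusted p was 0.00049 for ID2, 0.00073 for TRIB1, 0.0011 for ZNF804A, 0.0014 for DDIT4, 0.0024 for FAM43A, 0.0035 for DUSP16, and 0.0061 for both HMGA2 and FAM20C. It was 0.0074 for IRF1, 0.0097 for NFKBIZ, 0.0098 for ADM, 0.013 for CXCL2, 0.015 for RGS2, 0.02 for NFKBIA, 0.022 for FOS, 0.027 for KLF4 and 0.033 for HES1. JUNB, JUN, TRIM32, HSPA6 and ICAM1 had 0.037, SLC25A13 had 0.04, EPC1 0.041 and FOSB 0.046, and JDP2, EGR1 and SMAD7 had 0.047. With 1 line left out the test called 0 to 4 genes in all. ADM, the gene of the vasodilator peptide adrenomedullin, changed by 1.45, 2.81 and 0.76 in A-204, SK-LMS-1 and VA-ES-BJ. TRIM32, a ubiquitin ligase, changed by -2.06, -1.09 and -1.13, and SLC25A13, a mitochondrial aspartate and glutamate carrier, by -1.08, -1.81 and -0.55.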

How the results depend on the processing

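The 2735 genes called became 1662 with no filter on low signals, 8006 with spike scaling, 148 with no replicate block, that is, no term for the line, and 0 in a fit of the 6 untreated and taurolidine arrays, where limma still gave 3783 genes at an unadjusted p under 0.05. With a line left out the counts ran from 361 to 425, with 363 without A-204. The 740 called members of the gene lists became 473 with no filter, 1710 with spike scaling, 54 without the block, 0 with the 6 arrays, and 114, 122 and 146 with a line left out. The genes that differed between lines, 1.43% of those tested, became 572 with a constant of the table median, 48 with no filter, 861 with a filter on all 12 arrays, 98 with equal array medians, 1047 with limma's trend, and 0, 1 and 4 with a line left out. The 389 called probe sets without a listed gene became 167 with no filter, 1801 with spike scaling, and 0, 5 and 39 with a line left out. The 92.9% of called genes that kept their direction on the arrays with TRAIL became 90.6% with a constant of the table median, 94.8% with no filter, 88.5% with a filter on all 12 arrays, 87.7% with equal medians, 87.5% with spike scaling, 89.1% with the trend, and 97.8% to 98.1% with a line left out. The cause of these shifts was not tested, except that a left-out line, the 6 arrays and the filters change how many arrays or genes enter.

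Of 170 named genes called as a mean over lines, 125 were still called with spike scaling and 22 reversed. The reversed genes and their values were HSPB1 -0.10, PFDN5 -0.080, GSTK1 -0.10, MGST3 -0.12, ESD -0.15, ALDH2 -0.26, BNIP3 -0.18, PSMB3 -0.079, PSME1 -0.10, RPL36 -0.077, FAU -0.21, MRPL28 -0.051, VARS1 -0.060, EIF3G -0.067, ATP5ME -0.0088, COX6A1 -0.11, COX5B -0.11, TIMM13 -0.11, ATP6V0C -0.21, PFKM -0.0044, MAP1LC3A -0.11 and MCM5 -0.013. ESD also reversed, to -0.066, with the mean of all its probe sets. No other alternative reversed a named gene. The named genes still called numbered 143 with no filter, 155 with quantile normalization, 38 without the block, 0 with the 6 arrays and 60 to 61 with a line left out, and 127 were tested with a filter on all 12 arrays. Dim probe sets limit the rest, since a signal near the constant of 11.8 gives only a rough fold.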

Other observations

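The report has not described genes of carbon metabolism, the lysosome and autophagy. Of 27 glycolysis and hypoxia genes 8 were higher and 0 lower by limma (29.6%, against 7.71% of all genes and 19.2% of genes with a mean signal above 3565). The list median was 0.33, or 0.20 with quantile normalization and -0.31 with spike scaling. PFKM, a phosphofructokinase, went from 5744, 3586 and 4696 to 9629, 5806 and 6453 in A-204, SK-LMS-1 and VA-ES-BJ, and ENO2, an enolase, was at 0.79 ± 0.14 (SE). Of 17 vacuolar ATPase genes 5 were higher and 1 lower (29.4% and 5.88%), with a median of 0.26 that was 0.11 with quantile normalization, 0.08 without VA-ES-BJ and -0.37 with spike scaling. Of 34 autophagy genes 7 were higher and 2 lower (20.6% and 5.88%), led by GABARAPL1, a protein of the autophagosome membrane, at 0.75 ± 0.15, but 17 members were above 0 and 17 below, and the list median was 0.00055, or -0.63 with spike scaling.

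Of 11 circadian clock genes 2 were lower, NFIL3, a leucine zipper repressor, at -1.40 ± 0.15 and CLOCK at -0.50 ± 0.13 (18.2%). Of 11 YAP targets 3 were lower and 1 higher (27.3% and 9.09%), with AMOTL2, a scaffold that binds YAP, at -0.92 ± 0.16. The kinase gene DYRK2 dropped from 1072, 1969 and 770.4 to 244, 399 and 48.3, and its 3 other probe sets lay between -1.93 and -1.50.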
